A study of Drosophila melanogaster with 35 samples.

Results

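BG3C2 cells, a line derived from the larval central nervous system of Drosophila melanogaster, were profiled by RNA-seq after knockdown of DMAD. DMAD is the fly protein of the Tet family and is encoded by CG43444 (Tet in the reference name table, formerly CG2083). The values described are those of all genes that the authors tested between control and knockdown cells, which were 8645 of the 15163 genes in their deposited table. Each gene carried 1 value for the control group and 1 for the knockdown group, in FPKM, a fragment count scaled by transcript length and library size. Of the 35 samples of the series, 3 control and 3 knockdown libraries stood behind these values. The series asked what DMAD, through N6-methyladenine in DNA (6mA), does to gene expression and Polycomb binding in fly neurons.

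Knockdown cells received double-stranded RNA (dsRNA) of 580 bp against the DMAD transcript for 144 hours, after at least 24 hours without serum. Serum was returned to 3%, and medium and dsRNA were renewed every 48 hours. The genotype label of these libraries reads "DMAD-siRNA knockdown". The labels do not describe what control cells received, so the exposure to dsRNA and the loss of DMAD cannot be told apart. The protocol speaks of duplicate samples per condition, whereas the labels hold 3 libraries per group, and nothing says that they came from separate cultures, so the spread behind the authors' p-values may be technical. The knockdown template was amplified with the 2 gene-specific primer ends below, shown because they mark the stretch of the transcript on arm 3L that the dsRNA matched. They are written 5′ to 3′, in lower case and without the promoter tails.
forward: cggagccagtagttttcagc
reverse: catggggttgatcttctcgt

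Tet-family enzymes are dioxygenases that act on methylated bases, and DMAD is known as a factor that lowers 6mA in fly DNA. The fly innate immune response works through 2 NF-kappaB pathways. In the Imd pathway, peptidoglycan recognition proteins bind bacterial cell wall, the adaptor Imd passes the signal to kinases, and the factor Relish switches on genes of secreted antimicrobial peptides. The Toll pathway is started by the ligand Spätzle and acts through Dif and Dorsal. Glutathione S-transferases conjugate glutathione to toxic compounds, and heat shock proteins refold or hold damaged proteins.

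The DMAD transcript itself stood at 65.9 FPKM in control and 34.9 FPKM in knockdown cells, which is 53.1% of control. Its log2 ratio was -0.91, and the authors' deposited table gave it p = 0.0058 and q = 0.706, so it was not called. CG43444 lies at chr3L:2786206-2879158 in genome build dm3. The value covers the whole gene, and its spread between libraries is unknown, as is that of every other gene described here. In such bulk libraries fewer cells of a type and less RNA per cell cannot be told apart.

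Most transcripts differed little between the groups. Of 8624 tested genes with a finite ratio, 90.9% lay within 1.5-fold of equality, and the middle 50% of log2 ratios ran from -0.14 to 0.14 around a median of -0.01. At least 2-fold higher values in knockdown cells were found for 194 genes (2.25% of those tested) and at least 2-fold lower values for 108 genes (1.25%). The authors' deposited table called 19 genes higher (0.22% of those tested) and 3 lower (0.0347%) at q below 0.05. All 22 called genes had a change of at least 2-fold. The other 280 genes with such a change were not called, and 117 of the 302 had an FPKM under 1 in at least 1 group.

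**Figure D1:**
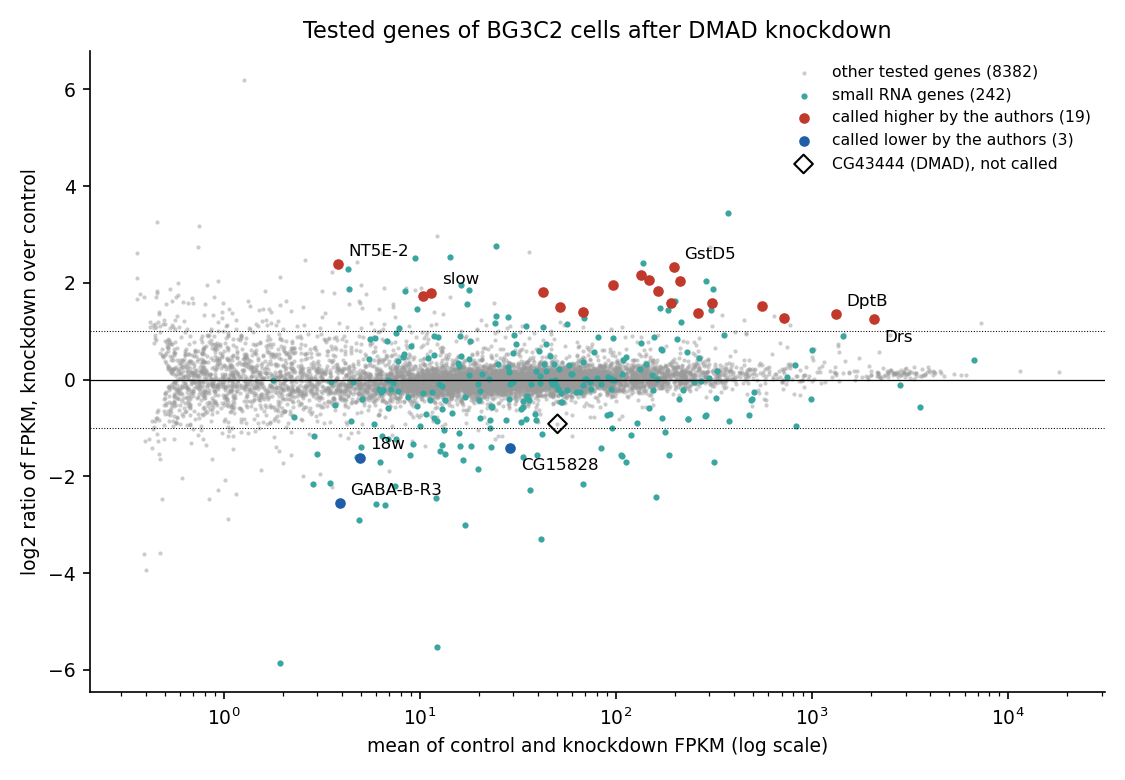
Each point is a tested gene, with the mean of its control and knockdown FPKM on a log axis across and the log2 ratio of knockdown over control up. Dotted lines mark 2-fold, and there are no error bars because each group has 1 value per gene. The 19 called rises lie between log2 ratios of 1.25 and 2.38, small RNA genes scatter widely on both sides, and the DMAD gene lies at -0.91 without being called.

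The genes that rose were mostly effectors of innate immunity. Of 20 antimicrobial peptide genes looked up, 15 were tested. All 15 had higher values in knockdown cells, 14 of them by at least 2-fold, and 11 rose by the authors' test, which called 0.22% of all genes higher. The median log2 ratio of the 15 was 1.53, against -0.01 over all tested genes. Control levels ran from 1.02 FPKM for Drsl6 to 4498 FPKM for metchnikowin (Mtk), and 12 of the 15 lay above 23.8 FPKM, the median of all tested genes.

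All 4 attacin genes, whose products act on Gram-negative bacteria, rose. AttA went from 39.3 FPKM in control to 153 in knockdown cells, AttB from 154 to 463, AttC from 286 to 825 and AttD from 420 to 1018. The fold therefore narrowed as the control level grew, from 3.899-fold for AttA to 2.43-fold for AttD, while q was 0.0240 for each in the authors' deposited table. Both diptericin genes rose, Dpt from 82.6 to 341 FPKM (4.13-fold) and DptB from 748 to 1910 (2.55-fold). Drosocin (Dro), a proline-rich peptide, rose from 57.2 to 239 FPKM (4.19-fold).

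Of the 4 cecropin genes, which encode membrane-disrupting peptides, 3 rose. CecA1 went from 71.6 to 256 FPKM, CecA2 from 95.8 to 287 and CecC from 146 to 379. The fourth, CecB, stood at 20.9 FPKM in control and 45.2 in knockdown cells (2.17-fold) and was not called (p = 0.0212 in the authors' deposited table). Attacin and cecropin genes have near-identical copies, so the split of reads between copies is uncertain.

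The antifungal peptide gene Drs (drosomycin), a known Toll target that Imd can also induce, rose from 1222 to 2905 FPKM (2.38-fold). Drsl6, a drosomycin-like gene, stood at 1.02 in control and 3.13 in knockdown cells and was not called. Mtk, the eighth most abundant tested transcript in control and the third in knockdown cells, had the largest gain in level of any gene, from 4498 to 10057 FPKM (2.24-fold), but was not called (p = 0.00145, q = 0.313 in the authors' deposited table). Its locus in the table overlaps other genes. The last tested peptide gene, the defensin gene Def, stood at 4.80 and 8.33 FPKM. Drsl1, outside the list, stood at 79.0 in control and 525 in knockdown cells (6.65-fold, q = 0.299 in the authors' deposited table). CG43236, which the reference name table calls Mtkl, stood at 197 and 499 FPKM (q = 0.273 in the authors' deposited table).

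**Figure D2:**
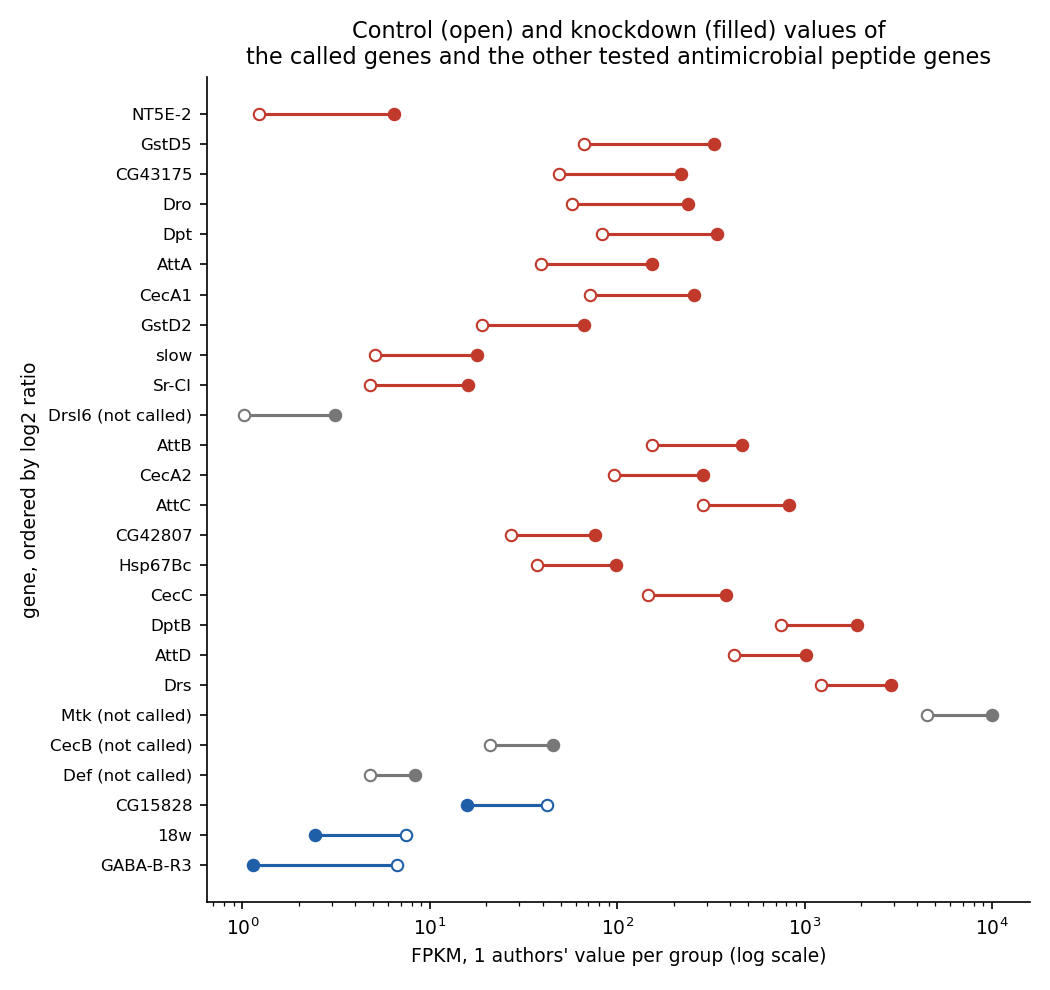
Each line joins the control FPKM (open) and the knockdown FPKM (filled) of a gene, on a log axis, with 1 authors' value per group and no error bars. Red genes were called higher, blue genes lower, and grey genes are antimicrobial peptide genes that were tested and not called. All 15 tested peptide genes have the filled point to the right, and GABA-B-R3 has the longest line to the left.

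The Imd pathway itself moved less than its targets, and none of its tested components was called. Of 27 tested components, 19 had higher and 8 had lower values, with a median log2 ratio of 0.09. Among the recognition proteins, the secreted PGRP-SD stood at 190 FPKM in control and 343 in knockdown cells, and PGRP-SB1 at 1.26 and 5.90. PGRP-SC2 and PGRP-LB, amidases that degrade peptidoglycan and dampen the pathway, stood at 68.4 and 146 FPKM and at 1.63 and 5.69 FPKM. For PGRP-SC2 the authors' deposited table gave q = 0.0692, among the lowest of the uncalled genes. The membrane receptor PGRP-LC stood at 17.8 and 23.8 FPKM, its regulators PGRP-LA at 17.6 and 23.3 and PGRP-LF at 5.95 and 8.36, and the receptor PGRP-LE at 36.1 and 40.99.

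Downstream of the receptors the values were closer together. The adaptor gene imd stood at 32.3 FPKM in control and 37.8 in knockdown cells, its partner BG4 (the fly Fadd) at 15.1 and 15.01, and the caspase gene Dredd at 27.7 and 25.96. The kinase gene Tak1 stood at 20.8 and 21.1, its partner Tab2 at 26.1 and 27.2, and the IKK subunits ird5 and key at 16.8 and 15.3 and at 248 and 278 FPKM. At the end of the pathway, Rel (Relish) stood at 116 in control and 181 in knockdown cells, a log2 ratio of 0.64 (p = 0.0455 in the authors' deposited table, not called). The gene of the inhibitor Pirk, itself a Relish target, stood at 56.5 and 94.5 FPKM (log2 ratio 0.74). Of 11 tested peptidoglycan recognition genes, those of the Toll pathway included, 9 had higher values, while PGRP-LD stood at 1.39 and 0.702 FPKM and PGRP-SC1b at 0.649 and 0.584. Each adaptor, caspase and kinase gene named above had a log2 ratio below 0.25 in size.

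The Toll pathway showed no common direction. Of 17 tested components, 8 had higher and 9 lower values, and the median log2 ratio was -0.02. The recognition protein gene PGRP-SA stood at 31.8 and 72.3 FPKM (log2 ratio 1.18) and the ligand gene spz at 138 and 224 (0.69), whereas the receptor gene Tl stood at 9.69 and 7.70, the inhibitor cact at 83.2 and 77.7, and the factors Dif and dl at 20.5 and 18.1 and at 33.3 and 34.1. None of these was called. The Toll-family receptor gene 18w (18 wheeler), at chr2R:15999016-16004437, fell from 7.47 to 2.44 FPKM (3.06-fold lower, q = 0.0240 in the authors' deposited table). Among its tested relatives, Toll-7 stood at 14.2 and 8.96 FPKM and Tollo at 59.0 and 60.2. JAK/STAT and JNK pathway genes had medians of 0.06 and 0.04 over 13 and 15 tested genes, with no call.

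Detoxification genes also had higher values, and the called ones belong to the Delta class cluster on arm 3R. Of 31 tested glutathione S-transferase genes, 26 had higher values, 5 by at least 2-fold, and 2 rose by the authors' test. The list's median log2 ratio was 0.41, and 0.66 over the 23 genes whose loci overlap no other. GstD5 rose from 66.2 to 331 FPKM (5.00-fold) and GstD2 from 19.0 to 66.5 (3.50-fold), each with q = 0.0240 in the authors' deposited table. All 9 tested Delta genes had higher values, with a median log2 ratio of 0.95. GstD6 stood at 11.9 and 35.7 FPKM, GstD4 at 7.18 and 15.7, GstD3 at 315 and 611, and GstD1, the most abundant of them, at 576 and 915, without a call. GstD9, whose locus overlaps that of GstD1, lay near equality at 92.7 and 98.3 FPKM.

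Among the other classes the values were smaller. The Epsilon class had a median of 0.60 over 11 tested genes, led among the abundant members by GstE8 (93.9 and 174 FPKM), GstE7 (171 and 292) and GstE6 (249 and 393). The Omega and Theta classes had medians of 0.25 and 0.14 over 4 tested genes each. GstS1, the Sigma enzyme, went the other way, from 687 to 478 FPKM, without a call. Gclm, a subunit of the enzyme that starts glutathione synthesis, stood at 33.8 and 74.5 FPKM (log2 ratio 1.14, q = 0.158 in the authors' deposited table). The list of oxidative stress defence genes had a median of 0.14 over 25 tested genes, 19 of them higher.

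Of the 7 tested genes grouped by name as small heat shock genes, 6 had higher values, while the constitutive Hsp83 lay near equality. Of 22 tested heat shock and chaperone genes, 17 had higher values and 5 reached 2-fold. The small heat shock gene Hsp67Bc was the only called member, rising from 37.5 to 98.7 FPKM (2.63-fold, q = 0.0393 in the authors' deposited table). Among the other genes of this group, Hsp23 stood at 1713 and 3258 FPKM, Hsp26 at 998 and 1919, Hsp22 at 1019 and 1708, and Hsp27 at 415 and 464. Hsp67Bb, which the reference name table calls CG4456 and which shares its locus with Hsp22, stood at 61.3 and 127 FPKM. Hsp67Ba went the other way, at 12.5 and 9.85 FPKM. The gene of the BAG-domain co-chaperone Starvin (stv) stood at 3.61 and 13.5 FPKM, and with q = 0.0564 in the authors' deposited table it was the uncalled gene nearest to the threshold. Hsp70Bc stood at 2.70 and 7.49 FPKM, low in both groups. Hsp83, the fly Hsp90, stood at 1191 and 1144, and Hsf, the factor that drives heat shock genes, at 36.6 and 36.3.

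The remaining called rises belong to no common list. NT5E-2, a 5′-nucleotidase gene, had the largest ratio, from 1.23 to 6.41 FPKM (5.21-fold). The scavenger receptor gene Sr-CI, used as a haemocyte marker, rose from 4.78 to 15.9 FPKM (3.32-fold) and slow (slowdown) from 5.11 to 17.8 (3.48-fold). CG43175 rose from 49.1 to 220 FPKM (4.49-fold) and CG42807 from 27.2 to 76.4 (2.81-fold); no function is stated for them in the files. The uncalled genes of higher value with the lowest p, after stv, were Idgf3, a chitinase-like growth factor gene at 12.2 and 28.9 FPKM, PGRP-SC2, the corepressor gene Bin1 at 196 and 420, and the glycosyltransferase gene pgant2 at 7.57 and 16.7. In the authors' deposited table their q values ran from 0.0692 to 0.0926. Idgf1 and Idgf2, the tested paralogs of Idgf3, stood at 0.793 and 4.39 and at 7.35 and 18.8 FPKM.

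Besides 18w, the genes of a neurotransmitter receptor and of a lipid transfer protein fell. The metabotropic GABA receptor gene GABA-B-R3, at chr2L:750609-762142, fell from 6.68 to 1.14 FPKM (5.88-fold lower, q = 0.0240 in the authors' deposited table). Of 40 neurotransmitter receptor genes looked up, 7 were tested, and 6 of the 7 had lower values, against 51.6% of all tested genes. Apart from GABA-B-R3 and nAcRalpha-34E (14.0 and 12.9 FPKM), the tested receptors reached at most 1.93 FPKM in either group. GABA-B-R2 stood at 1.58 and 1.31 FPKM. CG15828, which the reference name table calls Apoltp, an apolipoprotein of the lipid transfer particle, lies at chr2L:9634179-9656026 and fell from 42.0 to 15.9 FPKM (2.65-fold lower, q = 0.0393 in the authors' deposited table).

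The uncalled falls with the lowest p were Lin29 (dati in the reference name table), a zinc finger factor, at 82.7 and 36.7 FPKM (q = 0.0800 in the authors' deposited table), and stumps, an adaptor of FGF receptors, at 15.3 and 5.97. They were followed by the Nimrod receptor gene nimC3 at 11.0 and 2.96, E(spl)m3-HLH at 5.87 and 1.25, and the atypical myosin gene d (dachs) at 2.83 and 1.01. For stumps, nimC3, E(spl)m3-HLH and d the authors' deposited table gave q values from 0.235 to 0.398.

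Notch target genes of the Enhancer of split family had lower values. These E(spl) genes encode repressors and Bearded-family proteins that Notch signalling induces. Of 11 such genes in the table, 8 were tested, all 8 had lower values, and 6 were at least 2-fold lower, where 1.25% of all tested genes were. The count was 3 of 8 on the log2 scale of FPKM + 1, and 3 when both groups had to hold 1 FPKM or more. E(spl)mbeta-HLH stood at 9.96 FPKM in control and 4.49 in knockdown cells, E(spl)m6-BFM at 4.94 and 1.28, and E(spl)m7-HLH at 1.93 and 0.375. None was called, and all lay below 10 FPKM. Upstream, the receptor gene N stood at 34.9 and 26.6 FPKM, the ligand genes Dl and Ser at 3.88 and 2.36 and at 1.65 and 1.81, the receptor-modifying enzyme gene fng at 8.39 and 4.92, and the DNA-binding factor Su(H) at 10.2 and 9.05. The whole Notch list had a median log2 ratio of -0.25 over 24 tested genes, and -0.53 over the 15 whose loci overlap no other.

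Genes of proliferation, adhesion and chromatin had small shifts downwards that most members shared. Of 75 tested cell cycle and DNA replication genes, 70 had lower values, against 51.6% of all tested genes, with a median log2 ratio of -0.25 and a range from -0.63 to 0.13. The cyclin-dependent kinase inhibitor gene dap stood at 29.6 and 19.1 FPKM and the S-phase kinase gene cdc2c at 27.8 and 19.4. The genes of the replicative helicase lay close together, with dpa (Mcm4) at 58.9 and 42.7 FPKM, Mcm5 at 39.3 and 28.7, Mcm6 at 59.4 and 43.4 and Mcm7 at 58.6 and 42.5. None was called.

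Of 48 tested axon guidance and adhesion genes, 42 had lower values, with a median of -0.28, or -0.18 over the 22 whose loci overlap no other. The cadherin gene CadN stood at 28.7 and 15.3 FPKM, the leucine-rich repeat gene kek2 at 6.59 and 3.10, and the semaphorin gene Sema-2b at 3.01 and 1.42, whereas the adhesion gene Fas3 stood at 4.63 and 8.23. Of 39 trithorax group and H3K4 methylation genes, 37 had lower values (median -0.18), as did 22 of 26 Polycomb group genes (median -0.15). Rbbp5, a subunit of H3K4 methyltransferase complexes, stood at 13.8 and 10.6 FPKM, and the Polycomb gene Psc at 11.5 and 9.16. Of 12 tested genes on a list of Hox genes and other Polycomb targets, 8 had higher values (median 0.11), none called. The tested members, such as C15, hth and srp, include no Hox cluster gene. Some members lay at low levels, such as inv at 1.31 and 2.72 FPKM and tsh at 1.17 and 0.900. None of these lists had a called member.

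In the other direction lay genes of metabolism and translation. Of 21 tested glycolysis and lactate genes, 17 had higher values (median 0.26, or 0.16 when centred within bins of level and length). Lactate dehydrogenase (ImpL3) stood at 1774 and 2619 FPKM and Pgi at 211 and 316. Of 30 respiratory chain genes, 28 had higher values (median 0.15), and of 88 cytosolic ribosomal protein genes 82 did (median 0.13). Proteasome genes had lower values in 29 of 35 cases, with a median of -0.07. The apoptosis gene rpr (reaper) stood at 17.8 and 37.6 FPKM and p53 at 46.7 and 80.4, within a DNA damage and cell death list whose median was -0.01. On that list 10 tested genes had higher and 11 lower values. The lowest log2 ratios there were -0.635 for W, which has hid among its names in the reference name table, and -0.346 for lok. On a joint list named for DNA and RNA adenine methylation, CG9666 (Mettl5 in the reference name table) had the lowest ratio, at 3.28 and 1.11 FPKM, uncalled. The median of its 14 tested genes, DMAD included, was -0.12. That list also holds genes such as Mt2, MBD-like and MBD-R2, so its median is not that of genes acting on 6mA in DNA. Genes on a joint list of dsRNA and small RNA pathways had a median of -0.08 over 24 tested genes, 18 of them lower and none called.

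**Figure D3:**
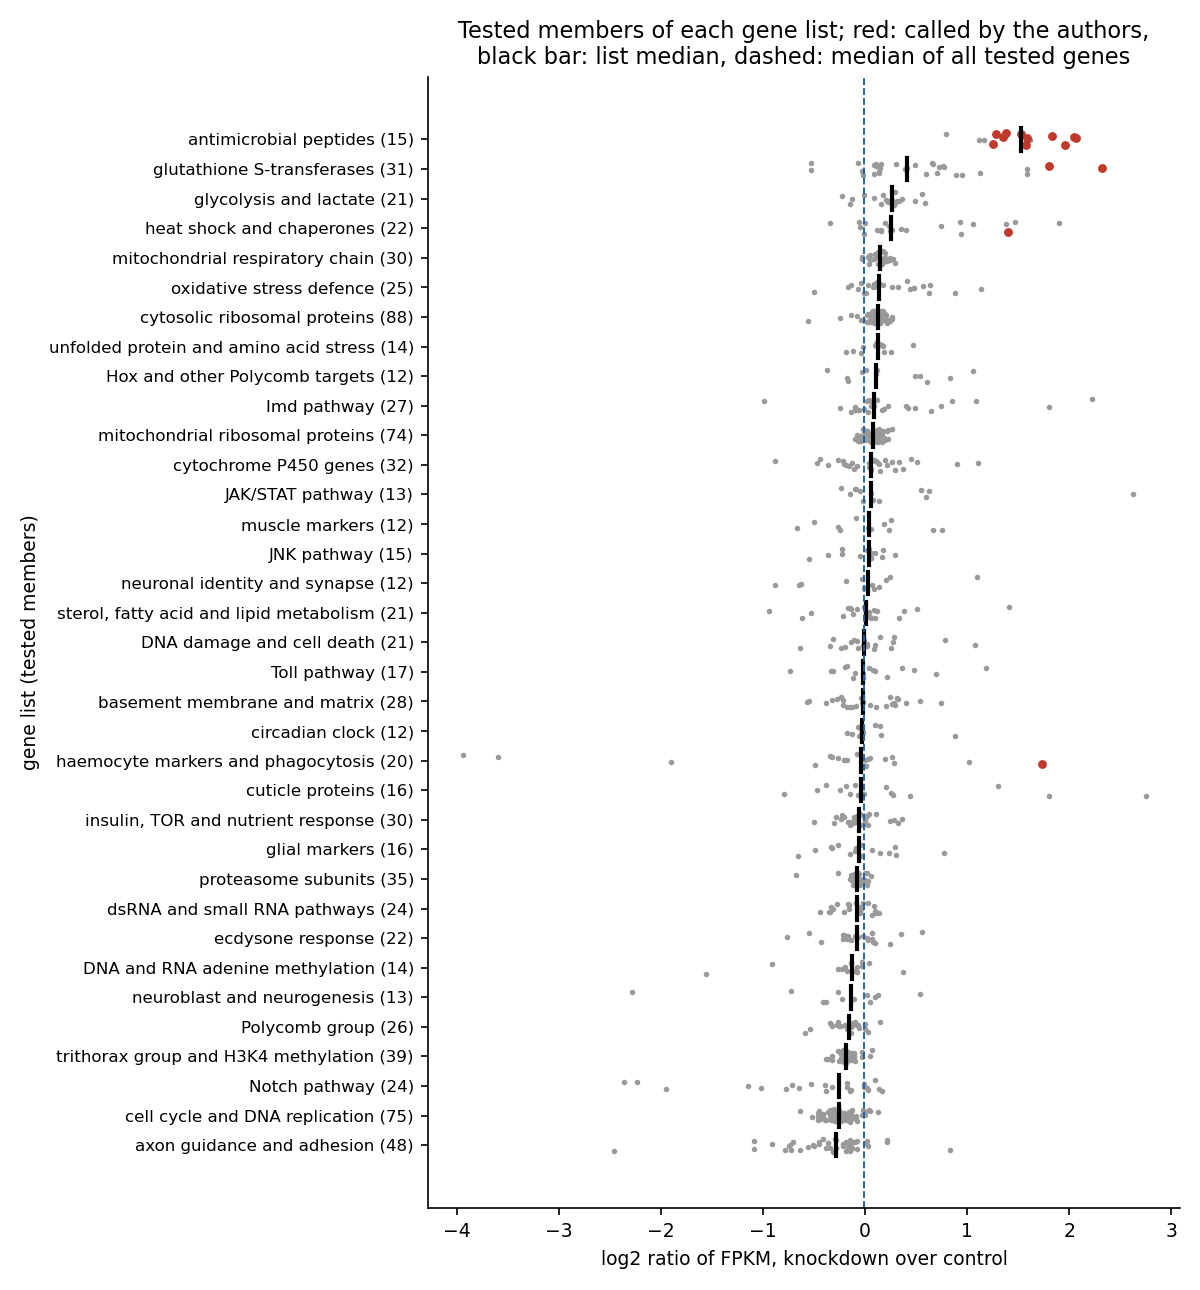
Each point is a tested member of a gene list, placed by its log2 ratio of knockdown over control, for lists with at least 10 such members. Red points were called by the authors, the black bar is the list's median and the dashed line the median of all tested genes, -0.01. Antimicrobial peptide genes stand apart at a median of 1.53, while the chromatin, cell cycle and ribosomal lists have medians within 0.3 of 0.

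Small shifts of this kind also followed the length and level of genes in general. When tested genes were divided into 10 bins of locus length, the median log2 ratio went from 0.07 in the shortest bin to -0.05 in the longest. In 10 bins of mean FPKM it went from -0.07 in the third bin to 0.10 in the highest, where 72.8% of genes had higher values. With log2 ratios centred within bins of level and length, the median of cytosolic ribosomal protein genes was 0.01 and that of respiratory chain genes 0.05. Under the same centring, cell cycle genes stayed at -0.24, axon guidance genes at -0.20, trithorax group genes at -0.14 and antimicrobial peptide genes at 1.43. A locus in the table can span several overlapping genes, so its length is not that of a transcript.

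**Figure D4:**
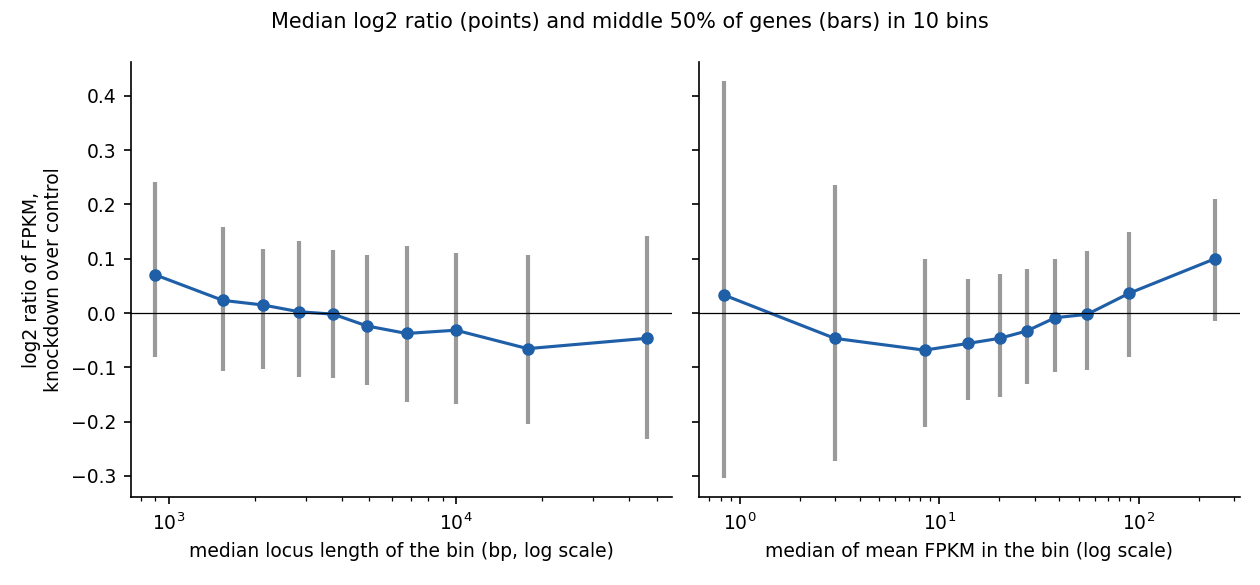
Tested genes were divided into 10 bins of locus length (left) and of mean FPKM (right), both on log axes. Points give the median log2 ratio of knockdown over control and bars the middle 50% of genes. The median is 0.07 in the shortest loci and 0.10 in the most abundant transcripts, and every median is small beside the width of its bar.

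Small RNA genes gave the widest ratios. The 242 tested snoRNA, snRNA, microRNA, tRNA and rRNA genes with finite ratios made up 2.81% of the tested genes but 42.6% of the at least 2-fold lower ones. The middle 50% of their log2 ratios ran from -0.81 to 0.45, against -0.14 to 0.14 for other genes, and none was called. Where both groups held 5 FPKM or more, all 10 of the largest falls were small RNA genes, such as mir-4977 at 75.04 and 7.69 FPKM (p = 0.284 in the authors' deposited table). Without these genes, 166 genes were at least 2-fold higher and 62 at least 2-fold lower. At 5 FPKM or more in both groups, the lowest ratios were then those of CG15828, stumps, CG5758, CG43221 and Lin29, and the highest was that of Drsl1.

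Many of the genes that rose were neighbours. Of the 19 called rises, 12 had another called rise within 20 kb. Dro, AttA and AttB lie side by side on arm 2R with gaps of 656 and 1029 bp, and Dpt and DptB with a gap of 1129 bp. CecA1, CecA2 and CecC lie within a stretch of arm 3R that also holds CecB, and GstD2 and GstD5 within the Delta cluster. AttD and CG43175 lie 18600 bp apart with no tested gene between them. The uncalled genes beside these clusters differed from place to place. Within 20 kb of AttA the 7 uncalled tested genes had log2 ratios between -0.12 and 0.03. Within 20 kb of GstD5, 8 of 10 uncalled neighbours, mostly Delta genes, had higher values, with a median of 0.70. Around Dpt, 9 of 11 uncalled neighbours had higher values, and Jheh3, a juvenile hormone epoxide hydrolase gene, stood at 0.870 and 1.83 FPKM. The neighbours with lower values were its relatives Jheh1 and Jheh2, with log2 ratios of -0.45 and -0.14. No called gene lay on the X chromosome, which held 1454 of the tested genes.

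Few called rises had a DMAD, Pc, Wds or H3K4me3 peak of the same cell line in their locus. A DMAD peak touched the locus of 1 of 19 called rises (AttC, whose locus overlaps CG4744), against 57.4% of all tested genes. A Polycomb (Pc) peak touched 0 of 19, against 50.5%, and a peak of Wds, the fly WDR5 subunit of H3K4 methyltransferases, touched 1 (slow), against 50.9%. The active-promoter mark H3K4me3 was listed in control cells at 2 of 19 (GstD5 and Sr-CI), against 82.4%, and the acetylation mark H3K27ac at 6 of 19, against 88.4%. Called rises are short, with 15 of 19 in the shortest 25% of loci. Among the 625 genes that lie both in the shortest 25% of loci and in the highest 25% of levels, the share with an H3K4me3 peak was 91.5%, and the share with a DMAD peak was 46.9%. With loci extended by 1 kb on each side, 6 of 19 had an H3K4me3 peak, against 88.0% of all tested genes. A DMAD peak was then found at 3 of 19, against 65.5%. Among the 625 short and abundant genes these shares were 93.8% and 59.5%. Peaks are the authors' lists, used by position with an overlap of at least 1 bp.

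Each of the 3 called falls had peaks in its locus, as did most tested genes. A DMAD peak lay in 2 of 3, against 57.4% of tested genes. A Pc peak lay in 2 of 3, against 50.5%, and a Wds peak in 2 of 3, against 50.9%. In control cells H3K4me3 was listed at 2 of 3, against 82.4%, and H3K27ac at 3 of 3, against 88.4%. The 18w locus held DMAD, Pc, Wds, H3K4me3 and H3K27ac peaks, 1 of each in control cells. CG15828 held 3 DMAD peaks and 1 Wds peak. GABA-B-R3 held 1 Pc peak and no DMAD peak, and its 2 H3K27ac peaks of the control list had no counterpart in the knockdown list. The locus of slow, which rose, had no H3K27ac peak in the control list and 1 in the knockdown list. Windows of gained 6mA after knockdown lay in the loci of 2 of 19 called rises, CecC (1 window) and Sr-CI (2 windows). None of the 3 falls held such a window. The share with a window was 20.1% of all tested genes, but 4.32% of the 625 short and abundant genes. Most called rises are short, so the share of all tested genes is not matched to them in length. The DMAD locus itself held 16 such windows, or 0.172 per kb. Of 365 tested genes with loci of at least 50 kb, 12 had more windows per kb, and their median was 0.0561.

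**Figure D5:**
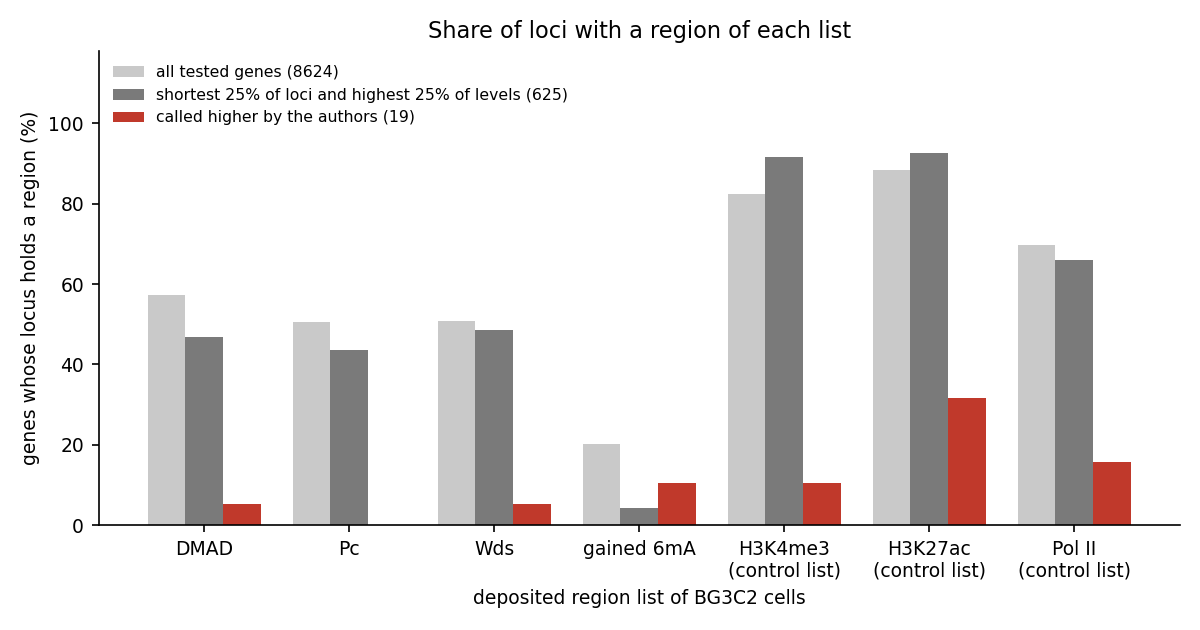
Bars give the percentage of genes whose locus in the table holds at least 1 region of each deposited list of BG3C2 cells, for all 8624 tested genes with a finite ratio, for the 625 short and abundant ones, and for the 19 called rises. For H3K4me3 in control cells the shares are 82.4% and 91.5% for the first and second groups, and 2 of the 19 called rises have a peak. Bars are shares of genes and have no error bars.

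Across all tested genes, differences by region were small beside those at the called genes. Genes with a DMAD peak had a median log2 ratio of -0.02 and genes without one of 0.01. Genes with a window of gained 6mA had a median of -0.04 and genes without one of -0.00099. Genes with regions have longer loci, and within the longest 25% of loci the medians with and without a gained window were -0.05 and -0.04. At least 2-fold higher values were found for 1.04% of genes with a control H3K4me3 peak and 7.93% of those without. For at least 2-fold lower values the shares were 0.970% and 2.58%, so changes in both directions were more frequent without a peak. These shares were not matched for level or length. Of the 302 genes with a change of at least 2-fold, 117 had an FPKM under 1 in at least 1 group. Whether level accounts for the difference in shares was not tested.

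The same genes in brains labelled DMAD knockout, a separate comparison with 2 control and 2 knockout libraries, gave values that can be set beside these. Those libraries are labelled wild type and DMAD knockout, but CG43444 itself stood at 39.8 FPKM in control brain and 40.4 in the brain libraries labelled knockout, without a call. The value covers the whole gene, and the table does not show which part the knockout removes, so the label stands unchecked by it. In the authors' deposited table of that tissue, 0.387% of tested genes were called higher and 0.375% lower. Of the 19 genes that rose in BG3C2 cells, 16 were tested in brain, 12 had higher values there and 8 were called higher. The 8 were Dro, Dpt, DptB, AttA, AttB, AttC, Drs and CG42807, of which AttB stood at 8.81 FPKM in control and 95.0 in brain labelled knockout. CecA1 stood at 6.22 and 119 FPKM there without a call. GstD2 stood at 7.11 and 9.95 FPKM in control brain and in brain labelled knockout, Hsp67Bc at 194 and 134, and NT5E-2 at 7.53 and 7.21, all uncalled. Of the 3 falls, none was called in brain, where GABA-B-R3 stood at 40.4 and 34.2 FPKM and 18w at 8.72 and 11.0. In brain stv was called lower, at 384 and 66.1 FPKM (q = 0.0103 in the authors' deposited table), whereas its value was higher, without a call, in BG3C2 knockdown cells. No test compared the tissues.

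The line was checked against markers of the cell types it could resemble. Of 9 neuronal markers, elav (12.2 and 10.8 FPKM), cac (6.62 and 4.28) and Syx1A (24.0 and 26.4) reached 1 FPKM, while Syt1, brp, para, Appl, n-syb and fne did not in either group. The glial gene repo stood at 1.81 and 2.23 FPKM, and the glial marker gcm, untested, at 0.0440 and 0.126. The haemocyte genes srp and Hml stood at 135 and 119 and at 3.78 and 3.82. Summed marker levels were 44.0 and 42.4 FPKM for the neuronal list, 290 and 312 for the glial list, 155 and 151 for the haemocyte list and 136 and 148 for the muscle list. The 6 defining fat body markers, yolk and storage protein genes among them, were untested and summed to 0.682 and 0.762 FPKM. Of a wider fat body list, 3 of 19 genes were tested: regucalcin stood at 132 and 160 FPKM, CG6910 at 14.0 and 25.0, and CG15828 is the called fall described above. The neuroblast markers summed to 4.22 and 4.24 FPKM. The 4 gut markers summed to 0.654 and 1.65 FPKM, nearly all of it Amy-p at 0.565 and 1.55. Most of the haemocyte sum is srp, and without srp the other haemocyte markers, Sr-CI included, summed to 20.4 and 31.6 FPKM. The other sums also depended on their highest marker. The glial list summed to 174 and 170 FPKM without loco, and the muscle list to 25.1 and 21.2 without Act57B. The muscle marker sls had status HIDATA and was listed at 0 in both groups, so the muscle sums leave out its unknown level. The neuronal list summed to 20.0 and 16.0 FPKM without Syx1A, and the neuroblast list to 1.73 and 0.627 without insc. The part of other cells in the results was not tested.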

How the data were processed

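RNA libraries (TruSeq, 50 cycles, paired ends, per the labels' protocols) were processed with tools that the submitters' processing notes name as CASAVA 1.4, Bowtie 0.12.9, TopHat2 2.0.8 and Cuffdiff 2.2.1, on build dm3. Per the file headers, the authors deposited 1 FPKM per gene and group, a log2 ratio, a test statistic (a score not used here), a p-value (lowest 5e-05) and a q-value; the replicates were pooled, so depth, spread and intervals are unknown. Log2 ratios were recomputed from the FPKM columns without a pseudocount and differed from the deposited log2 by at most 1.24e-05. Of 15163 genes, 6481 were not tested, and 37 with status HIDATA were listed at 0 in both groups. No test was fitted here; calls are the authors' (q below 0.05). Named genes were the target, all called genes, the 10 largest changes each way at an FPKM of at least 5, the 5 uncalled genes of lowest p each way, the 10 most abundant, and the called, most changed and most abundant members of each of 42 lists, with pathway components given by role. Other genes, and groups within lists, were chosen after their values were seen. The members and lists were chosen with earlier results of these data known. Of 1852 names in the lists, 1848 were found. Deposited regions (MACS 1.4.2 in the same notes) were used by position only, with an overlap of at least 1 bp; the H3K27ac and Pol II lists have no sample record in the labels used here. Overlapping genes can share a locus in the table; start positions were written counting from 1. No column of per-sample values went unused (0 columns). Python 3.11.15 with pandas 2.3.3, numpy 2.4.6 and matplotlib 3.10.9 was used, and the ratios and counts were tested on simulated data.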

Additional observations from a re-analysis of the deposited data

How the results depend on the processing

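No paired analysis was possible because each group has 1 pooled value per gene, and for the same reason no replicate could be left out. At a q below 0.01, 0 genes were higher and 0 lower in the authors' deposited table, since its lowest q is 0.0240; q below 0.10, minimum levels and adjustment over expressed genes kept both counts within 1.5 times. The count of at least 2-fold higher genes was 108 with FPKM + 1, 116 with both groups at 1 FPKM or more, 485 at 1.5-fold, 72 at 3-fold and 88 without small RNA genes at that minimum. The count of at least 2-fold lower genes was 71, 69, 301, 41 and 25 under the same settings, and 62 without small RNA genes. At least 2-fold lower Enhancer of split genes numbered 3 with FPKM + 1 and 3 with both groups at 1 FPKM or more, settings added after the data were seen. Of 39 list medians, those that moved by at least 0.1 with FPKM + 1 were antimicrobial peptides (1.37), glutathione S-transferases (0.29), neurotransmitter receptors (-0.16) and odorant-binding proteins (-0.22). With both groups at 1 FPKM or more they were glutathione S-transferases (0.30), odorant-binding proteins (-0.11) and the list named cuticle proteins (0.23, from -0.04). That list also holds genes such as Acp76A, Acp95EF and Acph-1, so its median is not that of cuticle protein genes alone. With loci that overlap no other they were glutathione S-transferases (0.66), neurotransmitter receptors (-0.44), Notch pathway (-0.53), axon guidance (-0.18), small nucleolar and nuclear RNAs (-0.39), ecdysone response (0.025, from -0.08) and odorant-binding proteins (0.073, from -0.41). Centring within bins of level and length, added after the data were seen, as was leaving out small RNA genes, moved glycolysis (0.16) and cytosolic ribosomal proteins (0.010). Where the construction of a setting does not show why a value moved, the cause was not tested. The differences by locus length, level and region moved by less than 0.1 with 10 bins, with loci extended by 1 kb and without small RNA genes.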
